A study of Mus musculus with 10 samples.

Results

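Complex II, complex III and ATP synthase are enzyme complexes of oxidative phosphorylation, and their genes were compared in prefrontal cortex of mice after hypobaric hypoxia with and without light treatment. The genes were taken by symbol: the complex II subunits Sdha to Sdhd and their Sdhaf assembly factors, the Uqcr, Uqcc and Cyc1 genes of complex III, and the Atp5 and Atpaf genes of ATP synthase. This gave 42 of the 15914 genes listed, with 8 in complex II, 15 in complex III and 19 in ATP synthase. All 42 passed the filter on low values, which kept 14406 genes for testing.

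The mice were wild-type C57BL/6J, and bulk RNA of their prefrontal cortex was sequenced in 10 libraries. Hypobaric hypoxia (little oxygen at low air pressure) alone was applied for 5 libraries, the hypoxia group. For the other 5, named hypoxia + PBM below, it was followed by photobiomodulation, in which tissue is treated with laser light. Age, sex and light dose are not in the labels. All 10 libraries thus share the hypoxia, and a normal-pressure group was not analysed here. Separate animals are not stated for the libraries in the labels. The p-values thus set a group difference against the spread between libraries, which may in part be technical.

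Complex II oxidises succinate in the tricarboxylic acid cycle and passes the electrons to ubiquinone. Complex III moves electrons from ubiquinol to cytochrome c and pumps protons out of the mitochondrial matrix, and ATP synthase lets the protons flow back through a rotating ring of c subunits that drives the catalytic head. Neurons rely on this machinery for most of their ATP. Complex II is coded wholly in the nucleus, whereas complex III and ATP synthase also hold subunits coded in the mitochondrial genome.

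Many genes of oxidative phosphorylation are known to carry sites for the nuclear respiratory factor NRF1 and for oestrogen-related receptors in their promoters, so the start-proximal sequences of the members were read from RefSeq (GRCm38.p6, a build other than the GRCm39 of the deposited values). Of the 42 genes, 35 matched a promoter entry. Atp5a1, Atp5mpl, Cyc1, Sdhc, Uqcrb, Uqcrc2 and Uqcrq had none. The stretches below are shown because each stands for one case: an oestrogen-related receptor motif in the gene of the leading c-subunit isoform, an NRF1 motif in the gene of the most expressed complex III assembly factor, and no searched motif in the gene with the smallest p of all 42. Capitals mark the motif. Each stretch is written 5′ to 3′ on the strand of the gene, without bases annotated as UTR; for Uqcc2 the 25 bases next to the start were left out for that reason.
Atp5g3, chr2:73911327-73911576, minus strand: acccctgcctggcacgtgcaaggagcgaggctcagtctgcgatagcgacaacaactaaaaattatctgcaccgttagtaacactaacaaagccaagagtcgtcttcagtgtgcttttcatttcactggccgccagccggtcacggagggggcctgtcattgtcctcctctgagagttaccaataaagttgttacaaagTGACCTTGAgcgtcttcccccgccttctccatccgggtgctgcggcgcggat
Uqcc2, chr17:27133917-27134141, minus strand: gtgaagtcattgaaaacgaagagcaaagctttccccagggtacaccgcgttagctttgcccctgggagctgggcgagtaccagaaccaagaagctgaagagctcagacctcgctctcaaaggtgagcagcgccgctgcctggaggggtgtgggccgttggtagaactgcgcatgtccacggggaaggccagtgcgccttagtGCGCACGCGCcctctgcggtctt
Uqcc1, chr2:155930311-155930560, minus strand: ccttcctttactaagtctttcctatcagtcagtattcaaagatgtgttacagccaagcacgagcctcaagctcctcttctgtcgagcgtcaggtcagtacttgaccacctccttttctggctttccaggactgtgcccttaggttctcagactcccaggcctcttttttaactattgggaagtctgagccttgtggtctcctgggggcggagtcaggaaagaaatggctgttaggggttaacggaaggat

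On both strands of the whole promoter entries, the NRF1 motif, in the form capitalised in Uqcc2 with any base at its sixth position, was found in 14 of the 35 members (40%) and in 9.79% of the 12517 listed genes with an entry. The oestrogen-related receptor motif TCAAGGTCA, which appears in Atp5g3 as its reverse complement, was found in 2 members (5.71%), Atp5g3 and Sdhd, and in 0.328% of the listed genes. Both of these also count among the 14 with the NRF1 motif, which in Atp5g3 lies outside the stretch shown. The YY1 motif was in 1 member (2.86%), against 1.46% of the listed genes, and the ETS motif ACCGGAAGT was in 0 of the 35, against 2.17%. These are matches of letters, and no binding was measured. The 14 members with the NRF1 motif had a median log2 change of -0.0551 and the 21 without it one of -0.0258, and neither set held a called gene.

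None of the 42 genes passed the test between the groups, and the estimated changes were small. Log2 changes, taken as hypoxia + PBM over hypoxia from log2(FPKM + 1), ran from -0.143 to 0.18, and the 95% confidence intervals together spanned -0.284 to 0.344. Calls were made by limma-trend, at 0.05 on p-values adjusted by Benjamini-Hochberg over the whole table, and 2.85% of all tested genes met this rule (411 of 14406; 1.15% higher and 1.7% lower in hypoxia + PBM). The smallest adjusted p of a member was 0.166. At an unadjusted p under 0.05 there were 7 members (16.7%), 5 with negative and 2 with positive changes, beside 19.6% of all tested genes (10.1% negative and 9.46% positive). In the authors' deposited table, 0 of the 42 had a q-value under 0.05, beside 6.4% of its genes, and 6 had a p-value under 0.05. All 42 had the same sign there as in the fit used here, but both rest on the same libraries, so this is no independent check.

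The signs of the small estimates are given apart for subunits and assembly factors. Of the 30 subunit genes, 25 had a negative change and 5 a positive one, with a median log2 change of -0.0525, and of the 12 assembly factor genes 4 were negative and 8 positive, with a median of 0.0189. Over all tested genes, 50% of changes were below 0 and the median was 0.000114. Because none of the changes passed the test, these counts describe the direction of estimates and no change of any gene. Of all 42 genes 29 were negative, and this count was 23 without hypoxia replicate 2, 34 without hypoxia replicate 4, 22 with a trend on gene length removed and 7 with the mean of striatal neuron markers as a covariate, both described further on. Subunit genes were measured at 72.1 to 757 mean FPKM, a read count scaled by gene length and library size, and assembly factor genes at 4.35 to 101.

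**Figure D1:**
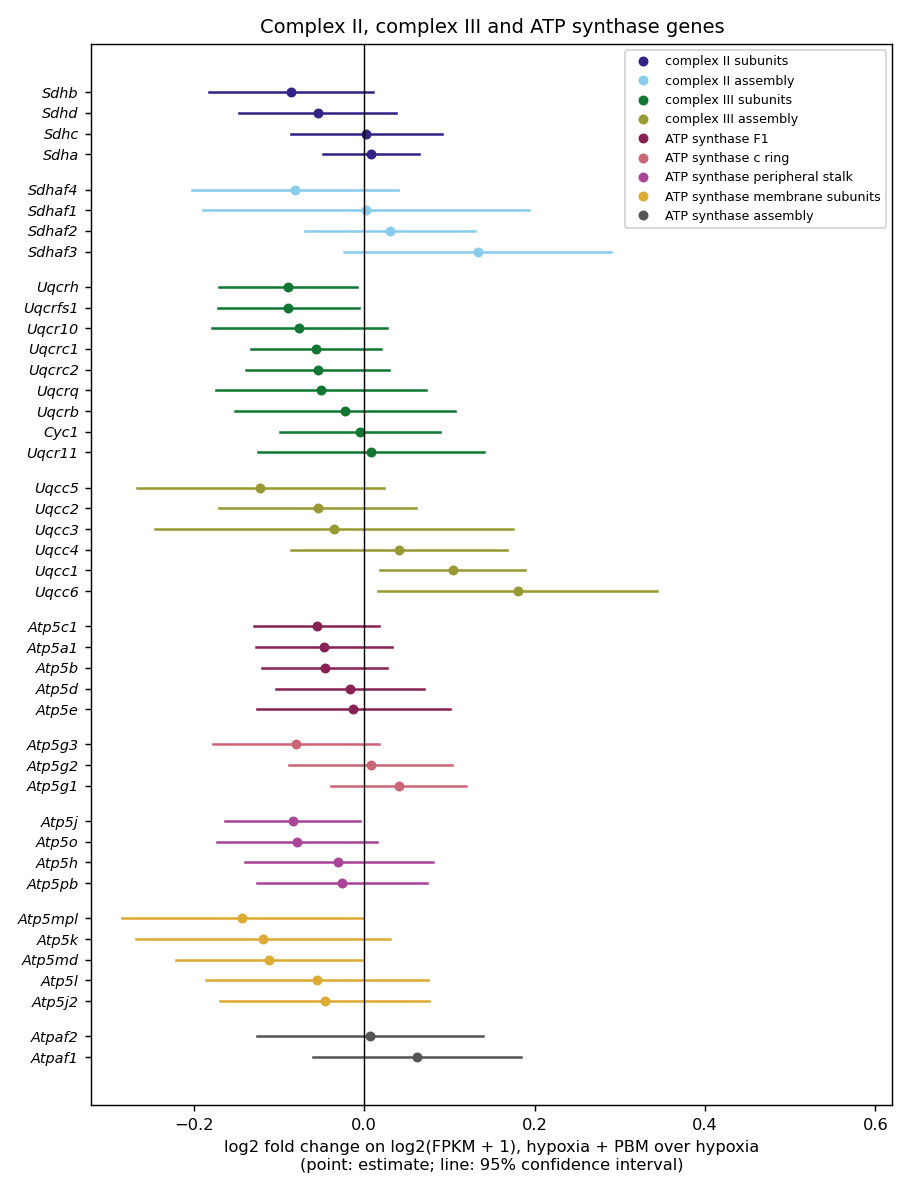
Log2 fold change of each of the 42 genes (x axis, taken as hypoxia + PBM over hypoxia from log2(FPKM + 1)), grouped and coloured by complex and role. Points are limma-trend estimates over 5 libraries per group and lines their 95% confidence intervals; none of the genes passed the adjusted test.

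Complex II levels differed between the groups by less than the spread of the libraries. The summed FPKM of its 8 genes was 545 ± 17.5 in the hypoxia libraries and 534 ± 19.9 in those of hypoxia + PBM (SD, n = 5 each). The 5 hypoxia libraries ran from 524 to 567 and the 5 hypoxia + PBM libraries from 504 to 551, so the groups overlapped. The median log2 change of the genes was 0.0024, with 3 negative and 5 positive. With 1 library left out at a time it took both signs, from -0.0349 without hypoxia + PBM replicate 4 to 0.0194 without hypoxia + PBM replicate 3.

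Sdha encodes the flavoprotein that oxidises succinate and had the highest level of complex II. Its FPKM was 167, 168, 166, 168 and 163 in hypoxia replicates 1 to 5 and 164, 170.1, 167, 168 and 168 in hypoxia + PBM replicates 1 to 5. The libraries of both groups lay in one narrow band, the log2 change was 0.00825 (95% interval -0.048 to 0.0645) and the limma adjusted p was 0.896. Sdhb, the iron-sulfur subunit that takes the electrons from Sdha, was at 154, 161, 146, 151 and 141 FPKM in hypoxia and at 139.7, 146, 129.6, 148 and 146 FPKM in hypoxia + PBM. Replicate 3 of hypoxia + PBM was the lowest of the 10 libraries and the groups overlapped, with a log2 change of -0.0858 ± 0.044 (standard error; limma adjusted p = 0.31). The membrane anchors that hold the quinone site, Sdhc and Sdhd, had log2 changes of 0.00273 and -0.0547.

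The complex II assembly factors were at 4.35 to 31.5 mean FPKM. Sdhaf4, which binds the flavin-loaded Sdha, was the most expressed, at 34.5, 33.2, 33.5, 30.4 and 30.5 FPKM in hypoxia and 28.6, 33.4, 29, 28.7 and 33.5 FPKM in hypoxia + PBM. Replicates 1, 3 and 4 of hypoxia + PBM lay below all hypoxia libraries and replicates 2 and 5 among them, and the log2 change was -0.0811 (limma adjusted p = 0.46). Sdhaf3, which helps to mature Sdhb, had 4.71, 4.51, 3.92, 3.4 and 4 FPKM in hypoxia and 4.65, 4.25, 4.24, 5.2 and 4.61 FPKM in hypoxia + PBM. Its log2 change was 0.134 ± 0.073 (standard error; limma adjusted p = 0.335), with overlap between the groups. Sdhaf1, also a maturation factor of Sdhb, and Sdhaf2, which attaches the flavin to Sdha, had log2 changes of 0.00206 and 0.0306.

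The complex III genes summed to 1623 ± 80.3 FPKM in hypoxia and to 1567 ± 73.7 FPKM with PBM (SD, n = 5 each). The ranges, 1538 to 1730.1 and 1460.3 to 1654, overlapped. The median log2 change of the 15 genes was -0.0505, and with 1 library left out it ran from -0.0683 without hypoxia replicate 5 to -0.0186 without hypoxia + PBM replicate 3. It was also over 1.5 times smaller without hypoxia replicates 1 or 2 (-0.0285 and -0.0232) or hypoxia + PBM replicate 1 (-0.0236). Of the 9 subunit genes, 8 had a negative change, and their median log2 change was -0.0546. Uqcrh, the hinge protein that assists the handover of electrons to cytochrome c, was the most expressed and had the smallest p among the complex III subunits. It was at 308, 319, 306, 295 and 298 FPKM in hypoxia and at 284, 281, 272, 289 and 308 FPKM in hypoxia + PBM. All hypoxia + PBM libraries but replicate 5 lay below the hypoxia libraries and replicate 5 lay among them. The log2 change was -0.0892 ± 0.038 (SE; 95% interval -0.17 to -0.00804; limma adjusted p = 0.209).

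The remaining complex III subunits gave estimates in the same range. Uqcrfs1, the Rieske iron-sulfur protein that takes electrons from ubiquinol, had a log2 change of -0.0891 ± 0.039 (standard error; limma adjusted p = 0.221). The core proteins Uqcrc1 and Uqcrc2 had -0.057 and -0.0546, and cytochrome c1, coded by Cyc1, had -0.00461. The small subunits Uqcr10, Uqcrq, Uqcrb and Uqcr11 had -0.0761, -0.0505, -0.0225 and 0.00815. CYTB, the mitochondrially encoded cytochrome b around which the complex is built, was at 6512 ± 189 FPKM in hypoxia and 6560.0 ± 488 with PBM (SD, n = 5 each; limma adjusted p = 0.959).

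Among the complex III assembly factors, Uqcc1 was the only one of the 42 genes whose groups did not overlap, beside 5.53% of all tested genes. Uqcc1 acts with Uqcc2 in the synthesis and stabilisation of cytochrome b. It was at 4.88, 5.17, 4.86, 5.17 and 5.04 FPKM in hypoxia and at 5.6, 5.35, 5.43, 5.6 and 5.39 FPKM in hypoxia + PBM. Each hypoxia + PBM library lay above each hypoxia library, but the gap was small and the gene was not called (log2 change 0.104 ± 0.039 SE; limma adjusted p = 0.166). The authors' deposited table gives it a log2 fold change of 0.125 and a q-value of 0.0545. Unlike most members it is long, at 2.76 times the length of the median tested gene. With the trend on gene length removed, its log2 change was 0.0774 (limma adjusted p = 0.296). Its partner Uqcc2 was the most expressed assembly factor, with 111, 105, 106, 98.4 and 95.1 FPKM in hypoxia and 90.4, 104, 93.2, 106 and 103 FPKM in hypoxia + PBM. The groups overlapped widely, and the log2 change had the other sign, -0.0547 (limma adjusted p = 0.615).

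Uqcc6, a short membrane protein needed for complex III assembly, had the highest estimate of the 42 genes, 0.18 ± 0.076 (log2 change, SE; limma adjusted p = 0.21). Its FPKM was 5.21, 5.94, 5.17, 5.27 and 4.76 in hypoxia and 6.74, 6.21, 4.8, 6.46 and 6.42 in hypoxia + PBM. All hypoxia + PBM libraries but replicate 3 lay above the hypoxia libraries, and replicate 3 lay near the bottom of them. Without hypoxia + PBM replicate 3 the gene was called (limma adjusted p = 0.0471), and over the fits that left out 1 library its adjusted p ran from 0.0471 to 0.374. The gene had 113 to 183 reads in a library, the fewest of all members. Uqcc3, Uqcc4 and Uqcc5, further factors of complex III assembly, had log2 changes of -0.0353, 0.041 and -0.122.

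Outside the symbol rule, both factors that carry the Rieske protein into complex III were higher in hypoxia + PBM. They belong to a list of 9 further assembly factors of these complexes, chosen with earlier results of these data known. Of the 9 genes, 2 were called higher and 0 lower, beside 1.15% and 1.7% of all tested genes. The median log2 change of that list was 0.0106, with 5 changes positive and 4 negative. Lyrm7 is a chaperone that holds the Rieske protein in the matrix. It was at 2.86, 2.94, 2.63, 2.98 and 2.77 FPKM in hypoxia and at 3.56, 3.67, 3.6, 3.61 and 3.68 FPKM in hypoxia + PBM. The groups did not overlap, which held for 5.53% of all tested genes. The log2 change was 0.27 ± 0.043 (standard error, limma adjusted p = 0.00852). With 0.1 in place of 1 added to the FPKM, Lyrm7 had a log2 change of 0.344, and limma-voom on recovered reads gave 0.356.

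Bcs1l encodes the AAA protein that moves the folded Rieske protein across the inner membrane. Its FPKM was 7.3, 7.34, 7.7, 6.84 and 7.22 in hypoxia and 8.95, 9.1, 8.15, 8.97 and 8.15 in hypoxia + PBM. Again each hypoxia + PBM library lay above each hypoxia library, with a log2 change of 0.223 ± 0.046 (standard error; limma adjusted p = 0.0224). With 1 library left out at a time, Lyrm7 was called in 10 of 10 fits. Bcs1l was called in 5 of them and missed the threshold without hypoxia replicates 1 or 5 or hypoxia + PBM replicates 1, 2 or 4 (limma adjusted p = 0.0507 to 0.0579). With the replicate number as a block, Bcs1l had an adjusted p of 0.0704 and Lyrm7 one of 0.0352. The third Rieske-linked factor of the list, Ttc19, which clears fragments of the Rieske protein, had a log2 change of -0.0155 (limma adjusted p = 0.836). Of 17 striatal neuron markers 15 were called lower, beside 1.7% of all tested genes. The summed FPKM of the 17 was 472 to 822 in hypoxia and 255 to 424 in hypoxia + PBM. Of 7 endothelial markers 3 were called higher, beside 1.15% of all tested genes, with sums of 38.7 to 47 and 48.9 to 57.7. The part of these cells in the values of Lyrm7 and Bcs1l was not tested apart from the striatal mean. With that mean as a covariate Lyrm7 had 0.216 and Bcs1l 0.314 (log2 change; limma adjusted p = 0.779 and 0.633), in a fit that called 0 genes at all. The promoter entries of Lyrm7 and Bcs1l held 0 of the 4 motifs searched.

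**Figure D2:**
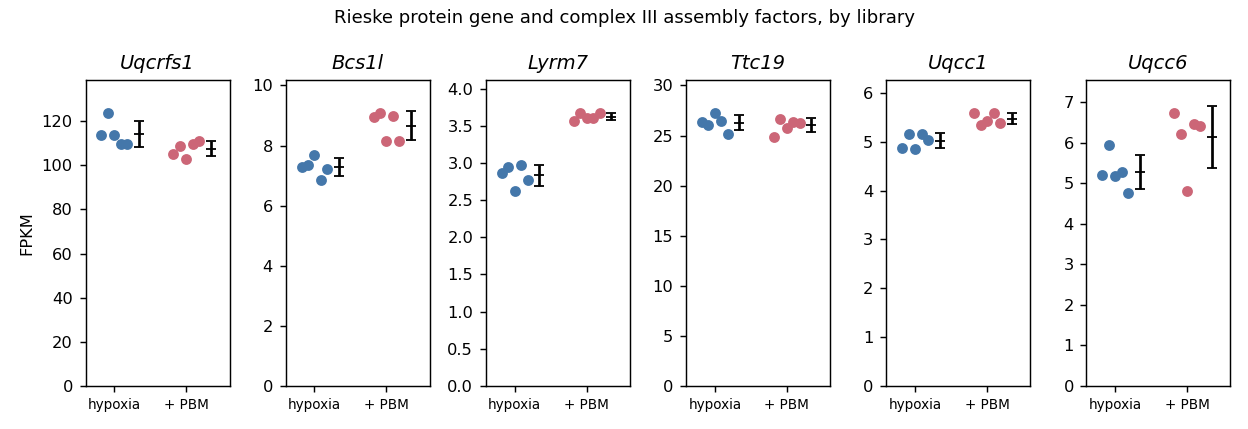
FPKM of the Rieske protein gene Uqcrfs1 and of 5 complex III assembly factors in each library (points, y axes from 0), with the mean and SD of each group of 5 in black. Bcs1l, Lyrm7 and Uqcc1 show no overlap between hypoxia and hypoxia + PBM, and Lyrm7 and Bcs1l passed the adjusted test.

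The ATP synthase genes summed to 4241 ± 189 FPKM in hypoxia and to 4079.6 ± 160.5 FPKM with PBM (SD, n = 5 each). The libraries ran from 3992 to 4472 and from 3866 to 4261, with overlap. As a share of reads, the 19 genes held 0.516% ± 0.0193 and 0.499% ± 0.0158. Of the 19 genes, 15 had a negative change, and the median log2 change was -0.0463. With 1 library left out this median ran from -0.0595 without hypoxia + PBM replicate 5 to -0.0206 without hypoxia replicate 2, and it was -0.0276 without hypoxia + PBM replicate 3.

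All 5 genes of the catalytic F1 head had negative estimates, from -0.0555 to -0.0125, and none was called. Atp5b, the beta subunit that holds the catalytic sites, was the most expressed of the 42 genes, at 787, 794, 759, 752 and 755 FPKM in hypoxia and 719, 768, 734, 766 and 739.9 FPKM in hypoxia + PBM. The 2 highest values were both from hypoxia, but the other libraries were interleaved, and the log2 change was -0.0463 ± 0.034 (standard error; limma adjusted p = 0.49). Atp5c1, the gamma subunit that forms the rotating shaft, had 156, 161, 159, 148 and 150.2 FPKM in hypoxia and 144, 151, 145, 155 and 151 FPKM in hypoxia + PBM. It had the smallest p of the F1 genes, with a log2 change of -0.0555 (limma adjusted p = 0.399) and overlapping groups. The alpha subunit gene Atp5a1 had -0.0475, and Atp5d and Atp5e, the small subunits at the foot of the shaft, had -0.0168 and -0.0125.

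The c ring is coded by 3 genes, Atp5g1, Atp5g2 and Atp5g3, which yield the same mature c subunit. Atp5g3 had the largest share of their summed FPKM, with 48% ± 1.15 in hypoxia and 46.2% ± 0.691 with PBM (SD, n = 5 each). Atp5g1 held 26.9% ± 0.69 and 28.2% ± 0.276, and Atp5g2 held 25.1% ± 0.511 and 25.7% ± 0.839. The share of Atp5g3 was 46.4% to 49% in the hypoxia libraries and 45.3% to 46.8% in those of hypoxia + PBM, so that hypoxia replicate 4 lay within the other group. In FPKM, Atp5g3 was at 221, 228, 208, 193 and 216 in hypoxia and at 197, 209, 191, 202 and 208 in hypoxia + PBM. Its log2 change was -0.0797 ± 0.045 (standard error; limma adjusted p = 0.354), while Atp5g1 and Atp5g2 had 0.0407 and 0.00764.

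The peripheral stalk keeps the F1 head from turning with the ring, and its 4 genes had negative estimates. Atp5o, which encodes the cap of the stalk known as OSCP, was the most expressed, at 283, 284, 279, 256 and 255 FPKM in hypoxia and 252, 255, 241, 266 and 269 FPKM in hypoxia + PBM. Hypoxia replicates 1, 2 and 3 lay above all others and the remaining 2 lay among those of hypoxia + PBM (log2 change -0.0792; limma adjusted p = 0.341). Atp5j, the stalk subunit called coupling factor 6, was at 102, 100, 99.7, 91.9 and 94.5 FPKM in hypoxia and at 90.2, 94.9, 88.3, 91.3 and 95.5 FPKM in hypoxia + PBM. The same 3 hypoxia libraries were highest, and the log2 change was -0.0836 ± 0.037 (standard error; limma adjusted p = 0.229). The b and d subunits of the stalk, Atp5pb and Atp5h, had -0.0258 and -0.0301.

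The small membrane subunits, some of which hold ATP synthase dimers together, had the lowest median of the role groups, -0.112 over 5 genes, and none was called. They are short, with a median length of 0.114 times that of the median tested gene, and with the trend on gene length removed Atp5md had a log2 change of -0.057 and Atp5k one of -0.0612. Atp5md, which encodes the subunit DAPIT, was at 445, 468, 461, 405 and 429 FPKM in hypoxia and at 405, 447, 375, 402 and 415 FPKM in hypoxia + PBM. Replicate 3 of hypoxia + PBM was lowest and the groups overlapped (log2 change -0.112 ± 0.051 SE; limma adjusted p = 0.246). Atp5mpl, which encodes the 6.8PL subunit, had the lowest estimate of the 42 genes, -0.143 ± 0.066 (log2 change, SE; limma adjusted p = 0.251). Atp5k, subunit e of the dimer interface, had 230.3, 219.5, 234, 192 and 207 FPKM in hypoxia and 188, 190.2, 193, 189.8 and 237 FPKM in hypoxia + PBM. Its hypoxia + PBM replicates 1 to 4 lay close together, at the level of hypoxia replicate 4, and replicate 5 was the highest of all 10 (log2 change -0.119; limma adjusted p = 0.371). Without that replicate the adjusted p was 0.0852. The subunits g and f, coded by Atp5l and Atp5j2, had -0.0553 and -0.0459.

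ATP synthase assembly factors and partners gave no call either. Atpaf1, the chaperone of the beta subunit, was at 10.9, 10.2, 10.6, 9.09 and 9.91 FPKM in hypoxia and 11.8, 10.6, 10.8, 10.4 and 9.52 FPKM in hypoxia + PBM, with overlap (log2 change 0.0623; limma adjusted p = 0.585). Atpaf2, the chaperone of the alpha subunit, had 0.00724. Atpif1, the inhibitor that stops ATP synthase from running backwards when the proton gradient fails and which the symbol rule does not take, was at 100.5 ± 4.68 and 95.4 ± 5.75 FPKM (SD, n = 5 each; limma adjusted p = 0.391). ATP6, the mitochondrially encoded channel subunit, was at 144 ± 11.3 and 137 ± 12.2 FPKM (SD, n = 5 each; limma adjusted p = 0.585). ATP8 was at 26.4 ± 3.53 and 24.2 ± 4.57 FPKM (limma adjusted p = 0.569). ATP6 and ATP8 overlap on the mitochondrial genome, so their counts are uncertain.

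**Figure D3:**
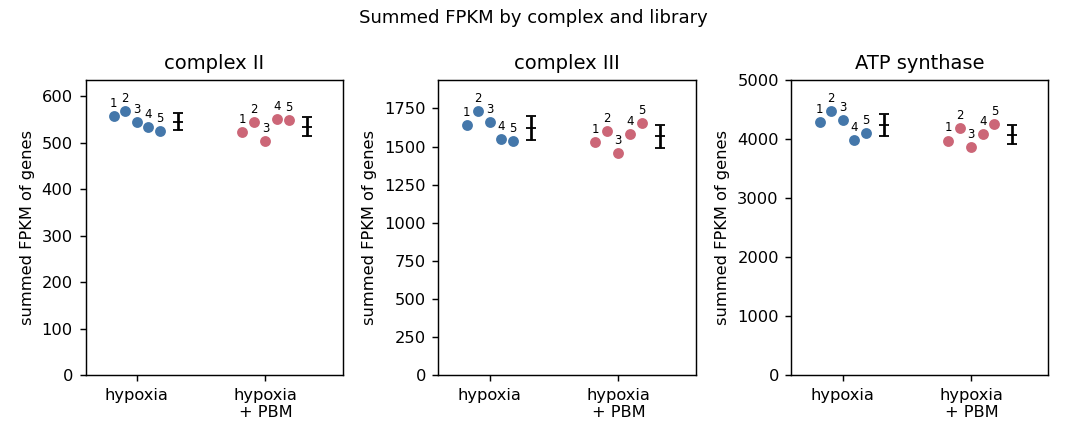
Summed FPKM of the genes of complex II (8), complex III (15) and ATP synthase (19) in each library (y axes from 0), with replicate numbers beside the points and the mean and SD of each group of 5 in black. The groups overlap in each panel, and hypoxia replicate 2 is highest and hypoxia + PBM replicate 3 lowest in all panels.

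The genes varied together from library to library, and this spread was wider than the difference between the groups. In each library the median deviation of the 42 genes from their own means was taken on the log2 scale. In hypoxia it was 0.0554, 0.098, 0.0404, -0.0571 and -0.0333 in replicates 1 to 5, and in hypoxia + PBM it was -0.047, 0.0152, -0.114, 0.0108 and 0.0518. In hypoxia replicate 2, 38 of the 42 genes lay above their own mean, and in hypoxia replicate 4 and hypoxia + PBM replicate 3 only 2 did. The group means of the deviation were 0.0207 ± 0.0643 and -0.0165 ± 0.0647 (SD, n = 5 each).

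The library values went along with a trend on gene length over all tested genes. The members are mostly short genes, with a median length, as implied by the FPKM and the recovered reads, of 0.345 times that of the median tested gene. Each library's deviation was smoothed on log2 gene length by loess, and the slope of a line through the smoothed values was taken. It was -0.0164, -0.0403, -0.0137, 0.0154 and 0.0128 in hypoxia replicates 1 to 5. It was 0.0276, -0.0144, 0.0405, -0.000694 and -0.00929 in hypoxia + PBM. Hypoxia replicate 2, with the lowest slope, had the highest member median, and hypoxia + PBM replicate 3, with the highest slope, had the lowest. With the trend on length removed in each library, 22 of the 42 changes were negative in place of 29, and the median log2 change was -0.00888 in place of -0.0461, again with 0 called members. By complex the median was then 0.0231 for complex II, -0.0165 for complex III and -0.0181 for ATP synthase. What underlies the trend was not tested.

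**Figure D4:**
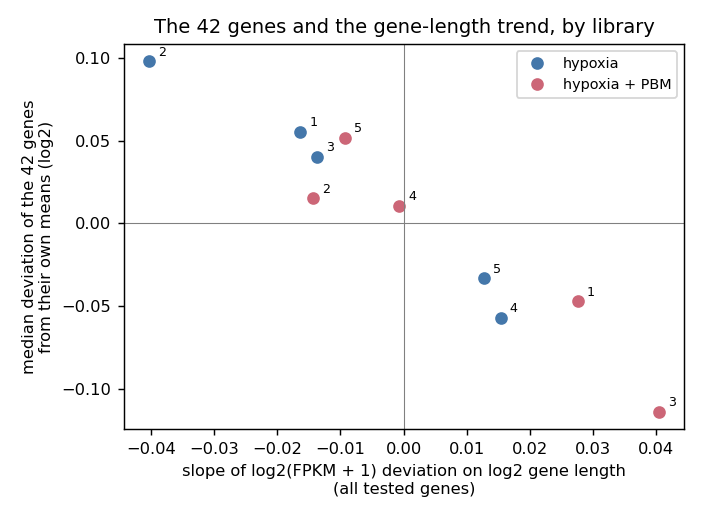
Median log2 deviation of the 42 genes from their own means (y axis) against the slope of the trend on gene length (x axis), 1 point per library with its replicate number. The slope is that of the loess-smoothed log2(FPKM + 1) deviation on log2 gene length over all tested genes. The points run from hypoxia replicate 2 at the upper left (slope -0.0403, median 0.098) to hypoxia + PBM replicate 3 at the lower right (slope 0.0405, median -0.114), with both groups spread along the way.

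Neighbouring pathways were read from lists written beside the members, where 2.85% of all tested genes were called. Of 14 tricarboxylic acid cycle enzymes, 0 were called, and Suclg2, a subunit of the succinate-producing ligase upstream of complex II, had the smallest p (5.93 ± 0.399 and 6.76 ± 0.406 FPKM, SD, n = 5 each; log2 change 0.163; limma adjusted p = 0.113). Of 8 genes of ATP export and phosphocreatine, 0 were called, with the brain creatine kinase Ckb at 1189 ± 55.6 and 1079 ± 48.3 FPKM (SD, n = 5 each; limma adjusted p = 0.107). Of 12 genes of cytochrome c and quinone synthesis, 0 were called, with Coq8a, a kinase-like factor of quinone synthesis, at a log2 change of -0.142 (limma adjusted p = 0.163).

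Between 29283937 and 35957148 reads per library lay on the listed genes, and 113 to 53078 reads per library on each member, so that counting error is small for the subunits and wider for Uqcc6, Uqcc5 and Sdhaf3. Of the 42 coding sequences, 13 had at least 1 other gene, mostly pseudogenes, at 95% identity or more over at least 50% of their length, with 8 such genes for Atp5l, so that their reads may be split or lost. The median log2 change was -0.0258 in these 13 and -0.0475 in the other 29. The prefrontal label went with summed FPKM of cortical excitatory neuron markers of 1234 to 1302 in hypoxia and 1305 to 1367 in hypoxia + PBM. These ranges did not overlap, and Camk2a alone averaged 693 FPKM over all libraries. The mean of the 9 markers was 4.6 ± 0.0473 and 4.64 ± 0.0293 log2(FPKM + 1) (SD, n = 5 each). Of the 9 changes 7 were positive and 2 negative, and 1 marker had groups without overlap. Of 17 markers of striatal medium spiny neurons, 15 were called lower in hypoxia + PBM and 0 higher, beside 1.7% and 1.15% of all tested genes. All 17 had negative changes, and none of the 17 was at 0 in all libraries. Their mean was 4.27 ± 0.307 and 3.44 ± 0.286 log2(FPKM + 1) (SD, n = 5 each), with no overlap. Of 7 astrocyte markers 2 were called higher and 0 lower, beside 1.15% and 1.7% of all tested genes. In that list 4 changes were negative, and the median log2 change was -0.00801. Of 7 endothelial markers 3 were called higher and 0 lower, beside the same 1.15% and 1.7%, and all 7 had positive changes. In the other lists (excitatory, inhibitory, oligodendrocyte, microglia, choroid plexus and blood) 0 markers were called. With the striatal mean as a covariate the median log2 change of the 42 genes was 0.0625, in a fit where that mean and the group cannot be told apart. The part of these cell types in the values of the members was not tested. In bulk tissue, fewer cells of a type and less RNA per cell cannot be told apart.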

How the data were processed

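The tools named per the submitters' processing notes are HTSeq, HISAT2 and fastp 1.0, with build GRCm39. Neither their settings nor the strand and annotation used are stated in these sources. The table is named for raw counts, but per the file headers the authors deposited an FPKM value for each gene and library. The authors also deposited a mean signal per group (counts divided by DESeq2 size factors), a linear fold change, its log2 value, and a p-value and q-value. FPKM is not a count, so the test was limma-trend (limma 3.58.1, R 4.3.3) on log2(FPKM + 1) with 1 term, the group, over genes with at least 0.1 FPKM in at least 5 libraries, two-sided. Read numbers were regained from the FPKM together with the deposited group means (100% whole within 0.01 reads) and were used for depth and for limma-voom. Gene length is relative, from the same solution. Its trend was removed by loess with a span of 0.5. The chi-square per gene between libraries of a group was 5.97 to 13.8, so none was taken as a copy of another and each was counted once. This value cannot tell separate animals from separate preparations of the same animal. Near-identical transcripts were found with blastn 2.17.0 in GENCODE M21 (GRCm38). The script was tested on simulated data.

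The values in every library are given for the called genes and, in each role group, for the gene with the highest mean FPKM and the gene with the smallest p. Lists of partners, further assembly factors and neighbouring pathways give their called genes or, with none called, the gene with the smallest p. Lists of cell type markers are given by counts and levels of the list, and of their genes only Camk2a is named. Other members given by library (Uqcc6, Atp5k) or singled out with a test (Uqcrfs1, Atp5mpl, Ttc19) were chosen after their values were seen. For Atp5a1 and the other members without a promoter entry no sequence is shown. The members and lists were chosen with earlier results of these data known.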

Additional observations from a re-analysis of the deposited data

Results flagged for a closer look

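In a group of 5 libraries, 2 members had 1 library apart from the other 4, among 84 groups of libraries looked at for the 42 genes, where chance gives about 1 in 20. Atp5k was at 237 FPKM in hypoxia + PBM replicate 5, with the others at 188 to 193. Uqcc6 was at 4.8 FPKM in hypoxia + PBM replicate 3, with the others at 6.21 to 6.74.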

How the results depend on the processing

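The count of 0 called members was the same under pseudocounts of 0.1 and 0.5, no filter, a minimum of 1 FPKM, TPM, upper-quartile scaling, limma-voom, the length trend removed, the striatal covariate and the replicate block. Leaving out 1 library gave 0 to 1 called members in all and in complex III, the 1 being Uqcc6 (log2 change 0.253, without hypoxia + PBM replicate 3). The count of called genes over the whole table was 631 with the length trend removed, 584 with limma-voom, 0 with the striatal marker mean as a covariate, 256 with the replicate block, and 200 to 538 when 1 library was left out.

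With the striatal covariate the median log2 change was 0.0775 for complex II, 0.0547 for complex III and 0.0664 for ATP synthase. In that fit 7 of the 42 members were negative in place of 29. Among the members given by library, the sign changed for Sdha (-0.0024), Sdhaf4 (0.0246), Uqcc2 (0.0547), Atp5c1 (0.00691), Atp5g3 (0.0457), Atp5o (0.0251), Atp5j (0.00593), Atp5md (0.0217) and Atp5k (0.0702). That covariate separates the groups without overlap, so its part and that of the group cannot be told apart. Same-numbered libraries of the 2 groups had correlations of deviations from -0.0721 to 0.205, so the numbers were not taken to pair them; 1 of 5 correlated best with its own number. In the block fit, of the members none was called. With TPM the median of all genes moved to 0.0217 and that of the members to -0.0216.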
